A study of Homo sapiens with 6 samples.

Results

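The 31 genes described here encode caspases, proteins of the BCL2 family, inhibitors of apoptosis and their antagonists, adaptors of the death receptors and proteins that mitochondria release in dying cells. They were chosen by symbol and found by matching the Ensembl identifier of each row of the deposited count table to its gene name. All 31 had a row among the 63677 genes of the table, and 26 of them were counted often enough to be tested, among 12507 genes tested in all. LoVo, an established human colorectal cancer cell line, had been transfected with siRNA at 25 nM for 48 h. In 3 libraries the cells received a mixture of both siRNAs against *SNHG15*, a long noncoding RNA, and in the other 3 they received a negative control siRNA, called scramble. The comparison asks which genes differ between cells given the *SNHG15* siRNAs and cells given scramble. Every library came from the same line and the siRNAs were given together, so the effects of the 2 siRNA sequences cannot be told apart here. Effects of loss of *SNHG15* and other effects of the siRNA mixture cannot be told apart either.

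The libraries held 3446922 to 10256710 counts, with the lowest total in scramble replicate 3. The targeted gene matched the labels in every library: *SNHG15* stood at 261 to 290 CPM, counts scaled to a common library size, with scramble and at 77.2 to 87.2 CPM with the siRNAs. The cells were checked against 8 markers of colorectal epithelium. *KRT8*, *KRT18*, *CDH1* and *CDX2* were counted in every library. In that order their means were 46.4, 23.9, 7.52 and 27.9 CPM with scramble and 55.4, 23.9, 4.43 and 25.9 CPM with the siRNAs. By contrast, *KRT19*, *VIL1* and *CDH17* were at 0 in all 6 and *EPCAM* had at most 1 count. Such values are unusual for an epithelial line, and whether they come from the cells or from how reads were assigned to genes was not tested, so a count at or near 0 in this table is not shown to be absence of the RNA. Of the blood, stromal and endothelial markers, the 7 found in the table had 0 to 9 counts in a library.

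Apoptosis runs along an intrinsic and an extrinsic route. In the former, BAK1 and BAX open the outer membrane of mitochondria, and the cytochrome c that leaves them binds APAF1 to activate caspase-9. The anti-apoptotic BCL2 proteins hold this step back, and the BH3-only proteins counter them. In the latter, ligand-bound death receptors recruit adaptors such as FADD and, through them, caspase-8 or caspase-10. Both routes end in executioner caspases, which XIAP can inhibit and which DIABLO and HTRA2 set free. Colorectal cancer cells are known to lean on BCL2L1 and MCL1 for survival.

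Among the 26 tested genes, *BAK1* rose and *CYCS*, the gene of cytochrome c, fell after *SNHG15* depletion, and no other passed an adjusted p of 0.05. *BAK1* was 1.87-fold higher and *CYCS* 0.591-fold the scramble level. These 2 genes are 7.69% of the genes tested here, beside 5.36% of all genes tested, or 3.13% called higher and 2.23% called lower. At an unadjusted p below 0.05 there were 6 genes, 1 higher and 5 lower, or 23.1% against 22.5% of all genes. The median log2 fold change was 0.01 over the 26 genes and 0.00 over all genes tested, with 14 of the 26 above 0 and 12 below. In 4 of the 26, or 15.4%, every siRNA library lay on one side of every scramble library, as in 28.8% of all genes tested. These 4 were *BAK1*, which was higher, and *CYCS*, *MCL1* and *AIFM2*, which were lower. Read against all genes, these shares were near the background for the calls and under it for the separation of the libraries. The background itself moved with single libraries. Without scramble replicate 2, 139 of 12658 genes were called, and 199 of 12658 without scramble replicate 1. The count was 266 of 12888 without scramble replicate 3 and 356 of 12820 without siRNA replicate 2. It was 665 of 12607 without siRNA replicate 3. Without siRNA replicate 1 it was 812 of 12803, above the 671 with every library kept. *BAK1* and *CYCS* stayed called in each. RNA was taken from whole cultures, in which fewer cells of one kind and less RNA per cell cannot be told apart.

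**Figure D1:**
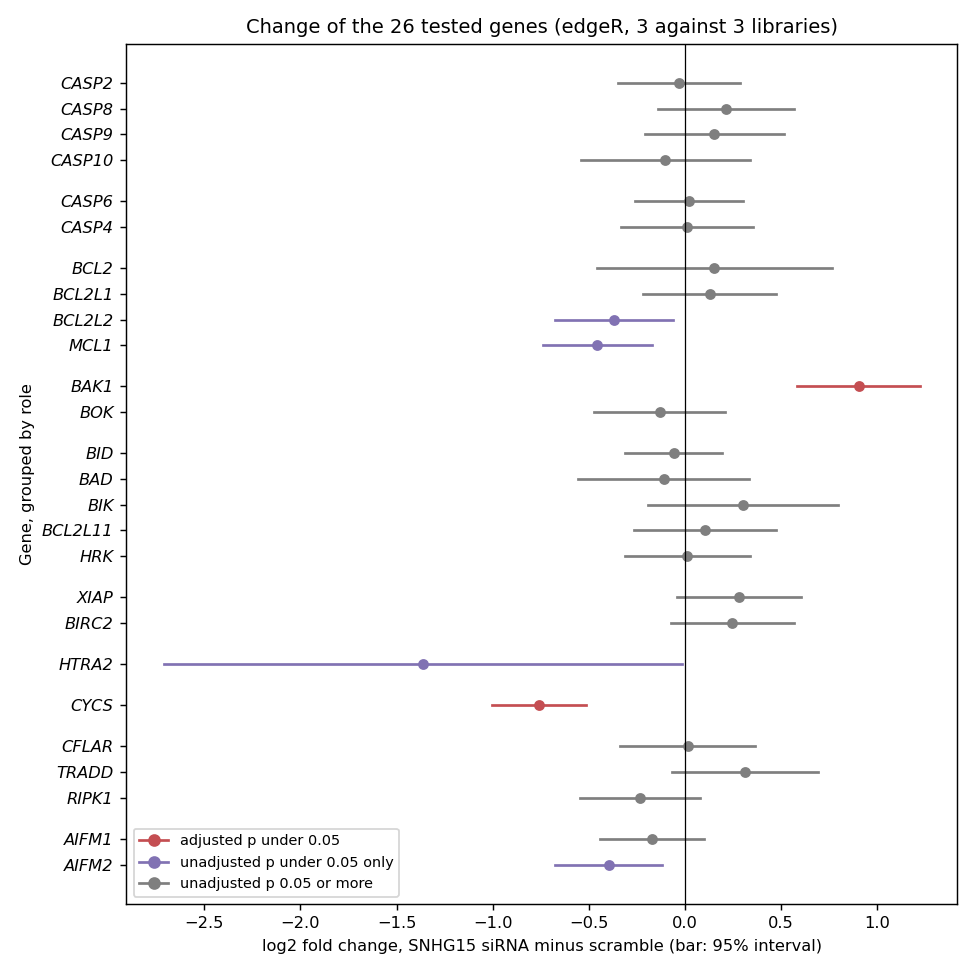
Log2 fold change of the 26 tested genes, *SNHG15* siRNA minus scramble, with its 95% interval as a bar, the genes set in order of role. *BAK1*, at 0.90, and *CYCS*, at -0.76, are the points past an adjusted p of 0.05, most other intervals cross 0, and *HTRA2* has the widest interval.

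*BAK1* encodes a multidomain BCL2 protein of the outer mitochondrial membrane that forms pores there once activated. The gene (ENSG00000030110) spans bases 33540324 to 33548070 of chromosome 6, minus strand, in GRCh37. Its level was 46.5, 55.3 and 54.7 CPM in scramble replicates 1 to 3 and 114, 82.7 and 95.02 CPM in siRNA replicates 1 to 3. Every siRNA library lay above every scramble library, with siRNA replicate 1 the highest. The means were 52.2 ± 4.91 CPM in the scramble and 97.4 ± 16.0 CPM in the siRNA libraries (SD, n = 3 each), from 181 to 825 counts in a library. The log2 fold change was 0.90 with a standard error of 0.15 and a 95% interval of 0.58 to 1.22 (adjusted p = 0.00569, edgeR quasi-likelihood test). By p-value *BAK1* stood 76th among the 12507 genes. *BOK*, the other pore-forming relative on the list, stood at 36.1 ± 6.72 and 32.5 ± 2.52 CPM, a log2 fold change of -0.13 with an interval of -0.47 to 0.21. *BAX*, the main partner of BAK1 in this step and not one of the 31 genes, had a log2 fold change of 0.11 with an interval of -0.16 to 0.37.

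*BAK1* has a processed pseudogene, *BAK1P1* (ENSG00000175730), at bases 31277982 to 31278617 of chromosome 20, minus strand, whose sequence is nearly the same and could take or give reads. Over its 636 bases, *BAK1P1* was 98.27% identical to bases 284 to 919 of the *BAK1* transcript, with 11 bases that differ. The stretch shown here, bases 701 to 760 of the *BAK1* transcript and 418 to 477 of the pseudogene, holds 5 of those 11, in capitals. It was picked because no stretch of 60 bases in the pair holds more differences, so it is not typical of the pair. The letters are those of GRCh37 in the direction of transcription.
BAK1: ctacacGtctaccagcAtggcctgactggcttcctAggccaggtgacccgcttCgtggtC
BAK1P1: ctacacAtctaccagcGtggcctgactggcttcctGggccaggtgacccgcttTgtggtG
Of the 2096 windows of 75 bases in the *BAK1* transcript, the length of a read, 170 or 8.11% occur unchanged in *BAK1P1*. Seen from the pseudogene, 170 of its 562 windows occur unchanged in *BAK1*. The pseudogene itself had 77, 105 and 52 counts in the scramble and 102, 135 and 137 in the siRNA libraries. Its log2 fold change was 0.56 with a standard error of 0.21, its conditions overlapped, and it did not pass the test (adjusted p = 0.139, edgeR). With the counts of both copies added in each library, the log2 fold change was 0.84 with a standard error of 0.14 (adjusted p = 0.00575, edgeR), so the call was kept with the copies combined. The annotation lists 1 other copy of *BAK1*, at 0 counts.

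*CYCS* encodes cytochrome c, the electron carrier of the respiratory chain that, once released into the cytosol, joins APAF1 in the apoptosome. It is found at bases 25158275 to 25164879 of chromosome 7, minus strand, in GRCh37 (ENSG00000172115). Its level was 226, 229 and 233 CPM in scramble replicates 1 to 3 and 134, 140 and 133 CPM in siRNA replicates 1 to 3. The conditions were far apart, and within each the libraries lay close together. The means were 229 ± 3.29 and 136 ± 3.58 CPM (SD, n = 3 each). On the log2 scale *CYCS* fell by 0.76 with a standard error of 0.11 and a 95% interval of -1.002 to -0.516 (adjusted p = 0.00413, edgeR), and *CYCS* stood 41st of all genes by p-value. The annotation lists 41 processed copies of *CYCS*. Of these, 7 had any counts, and together they summed to 2 to 9 counts in a library, while *CYCS* itself had 770 to 2304. *APAF1*, the partner of cytochrome c, was scarce, with 8, 11 and 6 counts in the scramble and 8, 8 and 13 in the siRNA libraries, and was not tested.

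**Figure D2:**
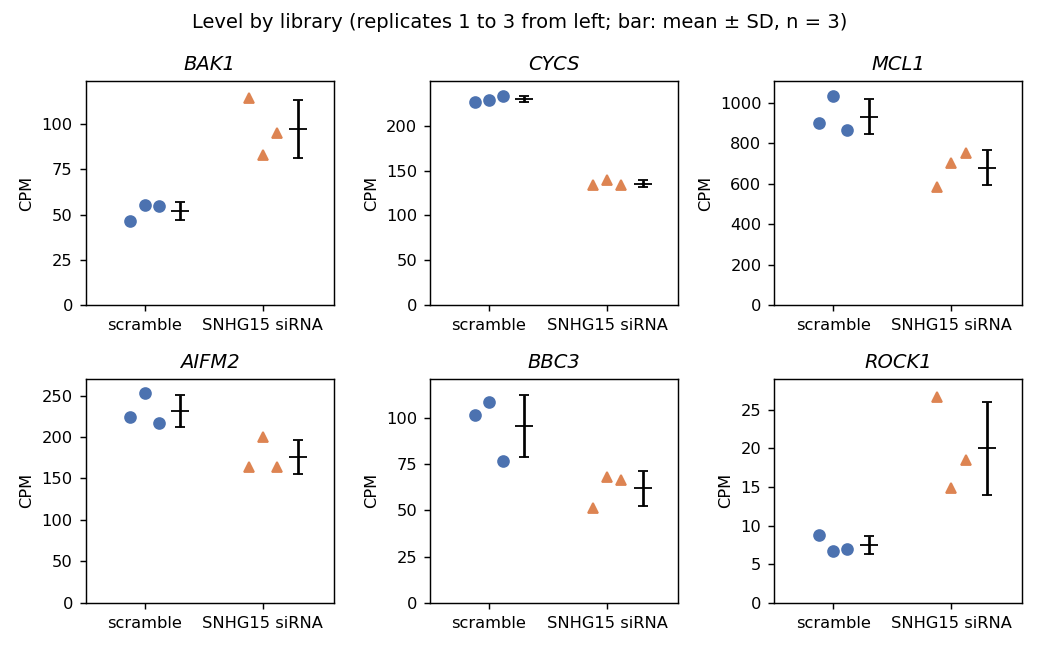
Level in CPM of each library for 6 genes, with scramble libraries as circles and *SNHG15* siRNA libraries as triangles, replicates 1 to 3 from left to right, and the mean ± SD (n = 3) as a bar. The siRNA libraries lie wholly above the scramble libraries for *BAK1* and *ROCK1* and wholly below them for *CYCS*, *MCL1*, *AIFM2* and *BBC3*.

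The promoters of these 2 genes are shown because they are the members that passed the test, in opposite directions. The sequences are those of RefSeq for GRCh38.p14, the 250 bases before the annotated start, read in the direction of transcription. Capitals mark matches on either strand to 4 motifs picked with these results known, namely the E-box CACGTG that MYC binds, the core GCATGCGC of the NRF1 site, the CCAAT box, whose reverse reads ATTGG, and the p53 half-site. The *BAK1* window is chr6:33580277-33580526 on the minus strand and the *CYCS* window is chr7:25125261-25125510 on the minus strand.
BAK1: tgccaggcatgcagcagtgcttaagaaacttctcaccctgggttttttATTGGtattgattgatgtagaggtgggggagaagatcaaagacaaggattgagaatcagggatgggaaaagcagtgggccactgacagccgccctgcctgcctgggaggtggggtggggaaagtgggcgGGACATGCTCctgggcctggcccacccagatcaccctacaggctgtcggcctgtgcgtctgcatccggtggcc
CYCS: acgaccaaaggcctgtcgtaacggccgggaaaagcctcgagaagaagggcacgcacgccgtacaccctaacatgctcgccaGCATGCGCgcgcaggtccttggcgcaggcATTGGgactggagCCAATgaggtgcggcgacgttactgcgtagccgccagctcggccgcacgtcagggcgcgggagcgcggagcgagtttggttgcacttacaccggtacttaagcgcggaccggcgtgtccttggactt
The *BAK1* window holds 1 CCAAT box, from base -202, and 1 p53 half-site, from base -73, counted back from the start, and 5 CpG dinucleotides. The *CYCS* window holds 1 NRF1 core, from base -169, with 2 CCAAT boxes and 31 CpG dinucleotides. The E-box occurs in neither window. Among 35116 RefSeq promoters of this length, 6.34% hold the E-box, 2.63% the NRF1 core, 32% a CCAAT box and 5.57% a p53 half-site. Of the 31 genes, 26 had a promoter in the RefSeq table. A gene was counted if any of its promoter entries held the motif, whereas the shares above count entries, so the units differ. The E-box was found in 1 of them, *BID*, the NRF1 core in 3, *AIFM1*, *CYCS* and *FADD*, the CCAAT box in 15, and the p53 half-site in 3, *BAK1*, *CASP8* and *CASP9*. A match of letters describes the window and says nothing of binding in these cells.

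The 4 anti-apoptotic BCL2 proteins did not pass the test, and 2 of them had an unadjusted p below 0.05 with lower values in the siRNA libraries. *MCL1*, a short-lived protein that restrains BAK1, is encoded on chromosome 1 from 150533371 to 150552214. It stood at 902, 1034 and 864 CPM in scramble replicates 1 to 3 and at 585, 704 and 752 CPM in siRNA replicates 1 to 3. The conditions did not overlap, with siRNA replicate 1 the lowest. Its log2 fold change was -0.46 with a standard error of 0.13 (adjusted p = 0.0602, edgeR), and the adjusted p was 0.021 with DESeq2 and 0.00855 in edgeR without a filter on low counts. *BCL2L2*, which encodes BCL-W, stood at 67.7, 65.5 and 54.7 CPM in the scramble and at 46.6, 44.6 and 55.1 CPM in the siRNA libraries. Scramble replicate 3 and siRNA replicate 3 overlapped, and the log2 fold change was -0.37 with a standard error of 0.14 (adjusted p = 0.144, edgeR). *BCL2L1*, the gene of BCL-XL, was at 151 ± 25.6 and 167 ± 29.7 CPM (SD, n = 3 each), with an interval of -0.22 to 0.48 around a log2 fold change of 0.13. *BCL2* itself had 20 to 43 counts in a library. Its log2 fold change of 0.15 had an interval of -0.46 to 0.76, so at this depth the data allow a fall as well as a rise.

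Since BAK1 is held back by MCL1 and BCL2L1, the counts of *BAK1* were also set against theirs within each library, a choice made after the values were seen. This ratio does not depend on how libraries are scaled to each other. There were 5.16, 5.35 and 6.33 *BAK1* counts per 100 *MCL1* counts with scramble and 19.5, 11.8 and 12.6 with the siRNAs. Against *BCL2L1*, there were 28.6, 32.7 and 44.8 *BAK1* counts per 100 in the scramble and 58.9, 48.5 and 70.3 in the siRNA libraries. Against *BAX*, there were 24.2, 30.7 and 25.9 per 100 and then 50.5, 41.0 and 47.9. In all 3 ratios the conditions did not overlap, and the *MCL1* ratio combined a numerator that rose with a denominator whose own test did not pass. All 3 reuse the *BAK1* counts already tested, so they add no separate evidence that *BAK1* rose. These are ratios of RNA counts that also differ by transcript length, and they do not give ratios of proteins.

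The BH3-only proteins, which sense damage or stress and switch the effectors on, had no called change among the 6 of the list, while *BBC3*, a gene of the same class outside it, is described further on. Of the 6, 5 were tested, and all had overlapping conditions. *BID*, which caspase-8 cleaves to link the extrinsic route to mitochondria, had the smallest standard error among the genes that were not called, 0.117, with 220 ± 11.3 and 211 ± 12.8 CPM (SD, n = 3 each) and an interval of -0.31 to 0.20. *BAD*, which binds BCL2L1, varied more, with 49.5 CPM in siRNA replicate 1 against 31.2 and 27.4 CPM in the other siRNA libraries, and had a log2 fold change of -0.11. *BCL2L11*, the gene of BIM, had a log2 fold change of 0.10 and *HRK* of 0.01. *BIK* had the highest of the 5, at 0.30, with an interval of -0.19 to 0.80 that comes from 20 to 68 counts in a library. *BMF* was not tested, with 11, 8 and 3 counts in the scramble and 22, 11 and 10 in the siRNA libraries.

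No caspase on the list passed the test. The initiator *CASP8*, which starts the extrinsic route, stood at 31.7 ± 2.89 and 36.9 ± 6.90 CPM (SD, n = 3 each). Its log2 fold change was 0.22 with an interval of -0.14 to 0.57. Its close relative *CASP10* was at -0.10, the apoptosome caspase *CASP9* at 0.15 and *CASP2*, an initiator of stress-induced death, at -0.03 on the log2 scale. *CASP6*, an executioner, had a log2 fold change of 0.02 with an interval of -0.26 to 0.30, and *CASP4*, an inflammatory caspase that senses bacterial lipopolysaccharide, one of 0.01 with an interval of -0.33 to 0.36. For all 6 caspases the conditions overlapped. Each interval printed gives the range of changes that these libraries allow, so the caspases were not shown to be unchanged.

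The adaptors of death receptors and the inhibitors of caspases likewise had no called change. *TRADD*, the adaptor of the TNF receptor, had a log2 fold change of 0.31, the highest among genes with an unadjusted p of 0.05 or more, and an interval of -0.07 to 0.69. *RIPK1*, a kinase that can lead to survival or to death, had the lowest among those genes, at -0.23. *CFLAR*, the gene of FLIP, which competes with caspase-8, was at 0.01. *FADD*, which bridges receptors and caspase-8, had 0 to 4 counts in a library and was not tested. *XIAP*, a direct inhibitor of caspases, had a log2 fold change of 0.28 and *BIRC2*, a ubiquitin ligase that acts on RIPK1, one of 0.25, with intervals of -0.04 to 0.60 and -0.07 to 0.57. Neither was called (adjusted p = 0.287 and 0.344, edgeR).

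The antagonists of these inhibitors were scarce. *HTRA2*, a mitochondrial protease, had 15, 9 and 8 counts in the scramble and 1, 9 and 3 in the siRNA libraries. The conditions overlapped through siRNA replicate 2, and the log2 fold change of -1.36 had a standard error of 0.62 (adjusted p = 0.217, edgeR). In the 5 fits with one library left out that still tested the gene, that value ran from -2.50, without siRNA replicate 2, to -0.92, without siRNA replicate 1, and without scramble replicate 1, which had the most counts, it was not tested, so *HTRA2* is the least certain value in the set. *DIABLO*, the gene of SMAC, had 1, 4 and 0 counts in the scramble and 1, 0 and 4 in the siRNA libraries and was not tested. Read on either strand, every one of its 1397 windows of 75 bases also occurs in another annotated gene. The same holds for 52.9% of the windows of *FADD*, 29.8% of *ENDOG* and 26.5% of *HTRA2*. The identifier of the gene that holds all windows of *DIABLO* was not among those counted. Another gene, on the same strand with 76.4% of these windows, had 0 counts in every library. For *FADD*, *ENDOG* and *HTRA2* the genes that share windows lie on the opposite strand. How much of the low counts of these genes comes from reads shared with other genes was not tested.

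The mitochondrial flavoproteins include *AIFM1*, which encodes AIF, the protein whose binding to *SNHG15* the study examined. It stood at 105, 120 and 117 CPM in scramble replicates 1 to 3 and at 90.1, 104 and 108 CPM in siRNA replicates 1 to 3, with overlap between 105 and 108 CPM. Its log2 fold change of -0.17 had an interval of -0.44 to 0.10 (adjusted p = 0.439, edgeR). Its relative *AIFM2*, known as FSP1 for its part in protection from ferroptosis, lies on chromosome 10 from 71857979 to 71892690. It was at 224, 253 and 217 CPM in the scramble and at 164, 200 and 164 CPM in the siRNA libraries, with no overlap. A log2 fold change of -0.40 had a standard error of 0.13 and did not pass the test (adjusted p = 0.0899, edgeR). Both *CYCS* and *AIFM1* encode proteins of the space between the mitochondrial membranes. Per 100 *AIFM1* counts there were 216, 190 and 199 *CYCS* counts in the scramble and 148, 134 and 123 in the siRNA libraries. This ratio reuses the *CYCS* counts already tested, so it restates the lower *CYCS* level and adds no separate evidence of it. *ENDOG*, the gene of a mitochondrial nuclease, had 0 to 2 counts in a library and was not tested.

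Levels of different genes were compared as CPM per kilobase of the canonical transcript, in the scramble libraries. *MCL1* was the highest at 236 ± 22.5, followed by *CASP4* at 147 ± 22.7 and *BID* at 101 ± 5.19 (SD, n = 3 each). *AIFM2*, *BCL2L1* and *AIFM1* lay between 51.3 and 73.8 CPM per kilobase. *BAD*, *CYCS* and *CASP6* were close to each other, at 42.3, 42.2 and 40.5. *BAK1* was next at 24.0 ± 2.26 in the scramble libraries, and in the siRNA libraries its level was 44.9 ± 7.36 while that of *CYCS* was 25.0 ± 0.659, so that the order of these 2 genes was turned. *BCL2L2* was at 17.8. The initiators *CASP8* and *CASP2*, with *BOK*, *TRADD*, *BIRC2*, *RIPK1*, *BIK* and *XIAP*, were between 6.54 and 13.8. *CASP9*, *HRK*, *BCL2L11*, *CFLAR*, *CASP10* and *HTRA2* lay between 0.947 and 4.61. *BCL2*, at 0.648 ± 0.20, was the lowest of the tested genes, whereas *MCL1* and *BCL2L1* were the most abundant of the 4 anti-apoptotic transcripts. The 5 genes not tested, *BMF*, *APAF1*, *FADD*, *DIABLO* and *ENDOG*, were at 0.0682 to 0.213 CPM per kilobase. The order depends on the length used. Per kilobase of all annotated exons of a gene, *MCL1* was still the highest, at 150.01, but *CASP4* was at 28.5, below *BID* at 49.7, *AIFM2* at 45.0, *CYCS* at 39.6, *BCL2L1* at 36.1 and *CASP6* at 34.1, and *AIFM1* was at 8.70, below *BAK1* at 23.6.

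**Figure D3:**
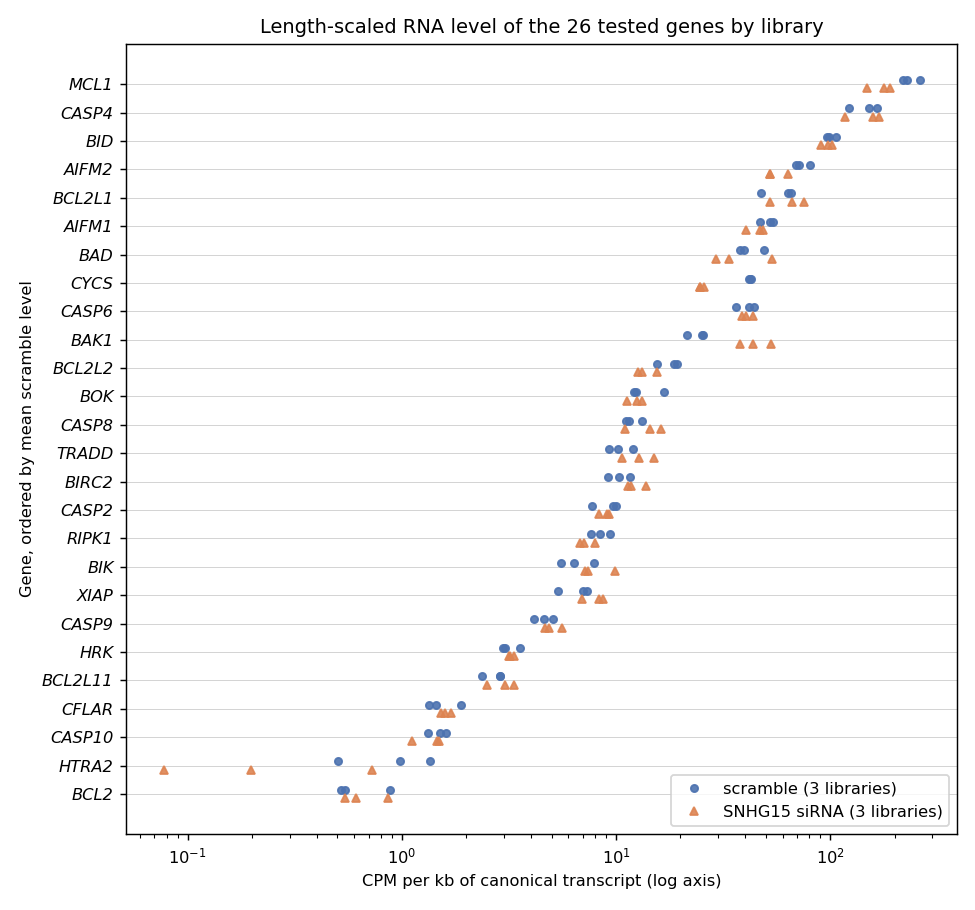
Level of the 26 tested genes in each library, in CPM per kilobase of canonical transcript on a log axis, ordered by the mean of the scramble libraries (circles), with *SNHG15* siRNA libraries as triangles. *MCL1* is the highest and *BCL2* the lowest, and the symbols of the conditions overlap in 22 of the 26 rows.

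The 20 tested genes with an unadjusted p of 0.05 or more had log2 fold changes from -0.23 to 0.31 with standard errors of 0.117 to 0.283, and their conditions overlapped in every case. These genes were not shown to be unaffected, since smaller changes could not be seen with such errors. Reads can also be shared between genes that overlap on the genome, and 19 of the 31 genes have exon bases in common with another annotated gene. The kit keeps the strand of the RNA, but the strand setting of the counting is not given in the sources used here. For *BAK1* these shared bases numbered 91, with *GGNBP1*, for *AIFM2* 986, with *MACROH2A2*, and for *BCL2L1* 1735, with *ABALON*. Each of these partners lies on the opposite strand. The identifiers of *ABALON* and of the only partner of *CASP8* were not among those counted. Whether either was counted under another identifier was not tested. In the canonical transcripts of *MCL1*, *AIFM1* and *AIFM2*, no window of 75 bases occurs in another annotated gene.

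The calls on *BAK1* and *CYCS* did not hang on the settings tried. Both genes passed an adjusted p of 0.05 in each of 6 alternatives that kept every library and in each of the 6 fits that left one out. Over the latter, the log2 fold change of *BAK1* ran from 0.77, without siRNA replicate 1, to 1.01, without siRNA replicate 2. That of *CYCS* ran from -0.78 to -0.74. The highest adjusted p in those fits came near the threshold, at 0.0442 for *BAK1* without scramble replicate 1 (edgeR). For *CYCS* it was 0.0306, without scramble replicate 2 (edgeR). *MCL1* passed in 2 of the 6 alternatives and *AIFM2* in 1, and neither passed in a fit with a library left out.

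**Figure D4:**
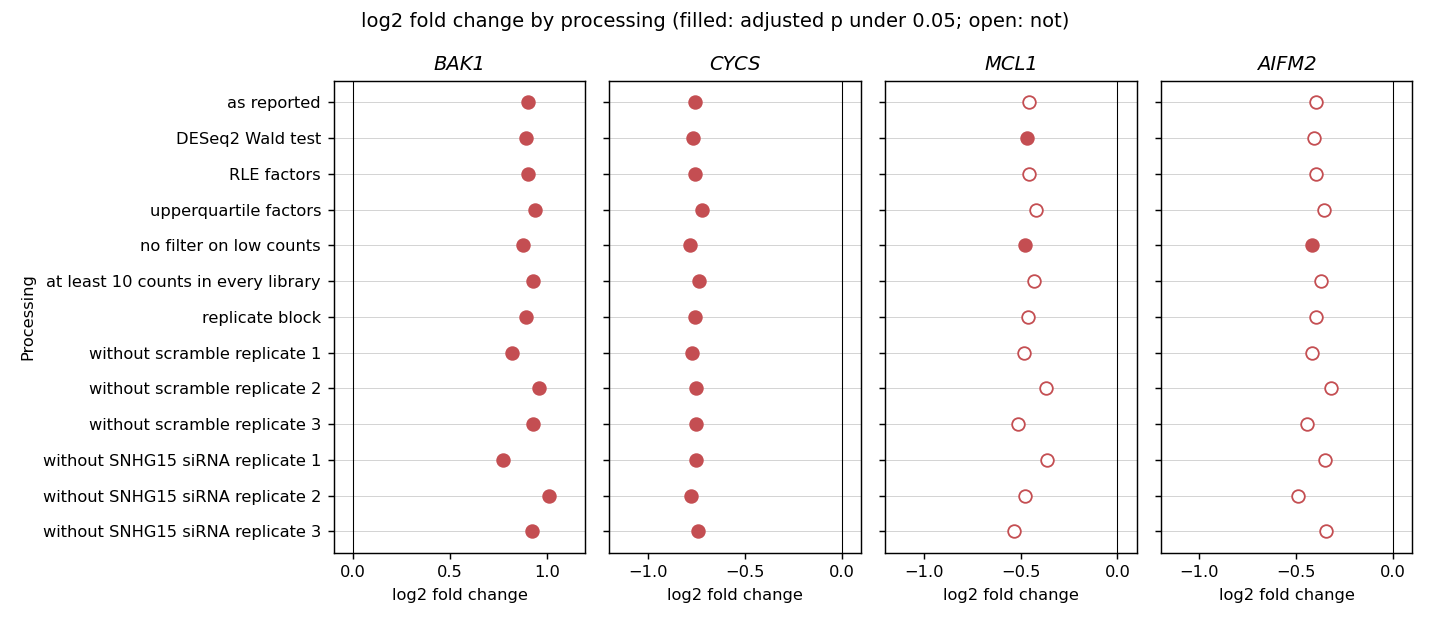
Log2 fold change of *BAK1*, *CYCS*, *MCL1* and *AIFM2* as reported, under the 6 alternatives that keep every library and without each library in turn, with filled points where the adjusted p was under 0.05. *BAK1* and *CYCS* are filled in every row, *MCL1* with DESeq2 and without a filter, and *AIFM2* only without a filter.

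The rest of the pathway was described with 65 other genes of apoptosis, of which 48 were tested. Of these, *ROCK1* rose and *BBC3* fell, so 2 genes or 4.17% were called, beside the 5.36% of all genes. Their median log2 fold change was -0.09, 20 were above 0 and 28 below, and 16 or 33.3% had conditions that did not overlap, beside 28.8% of all genes. *BBC3* encodes PUMA, a BH3-only protein and a target of p53. It stood at 102, 108 and 76.5 CPM in scramble replicates 1 to 3 and at 51.2, 67.8 and 66.5 CPM in siRNA replicates 1 to 3. No siRNA library reached the scramble range. On the log2 scale *BBC3* fell by 0.64 with a standard error of 0.16 (adjusted p = 0.0357, edgeR). The call was lost without scramble replicate 1, scramble replicate 2 or siRNA replicate 2 (adjusted p = 0.139, 0.17 and 0.0678, edgeR) and with a replicate block (adjusted p = 0.0619, edgeR).

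*ROCK1* encodes a kinase whose cleavage by caspases drives the blebbing of dying cells. It was at 8.79, 6.66 and 6.96 CPM in the scramble and at 26.6, 14.8 and 18.6 CPM in the siRNA libraries, again without overlap. On the log2 scale *ROCK1* rose by 1.41 with a standard error of 0.23 (adjusted p = 0.00569, edgeR), and the adjusted p was 0.0513 without scramble replicate 2. Without siRNA replicate 1, its highest library, the log2 fold change was 1.15. The counts behind it were 23 to 192 in a library. Its partial copy *ROCK1P1* had 1 to 12.

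The 12 ligands and receptors of the extrinsic route had no called gene. Of the 7 tested, 4 had an unadjusted p below 0.05, 3 of them higher and 1 lower in the siRNA libraries, or 57.1% of these few genes beside 22.5% of all genes. The ligand genes *FASLG*, *TNF* and *TNFSF10* were at 0 counts in every library, as was *RIPK3*, the kinase of necroptosis. The caspase genes *CASP5* and *CASP14* were at 0 and *CASP1* had at most 2 counts. A count of 0 allows up to 3 counts, or 0.298 to 0.907 CPM depending on the library, for counting error alone, and it does not cover reads that the counting may have left unassigned, as with the epithelial markers at 0.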

How the data were processed

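RNA from LoVo cells was sequenced in 3 libraries for each condition, described by the authors as biological replicates. The authors deposited counts of reads per gene, without normalization. The submitters' processing notes name STAR, featureCounts and hg19, whereas the paper's methods name bowtie2 against hg19. The labels name TRIzol for the RNA and the methods a Maxwell kit. The annotation, strand setting and treatment of multiply placed reads are not given in the sources used here. Groups and replicate numbers came from the sample labels, and 0 columns were left unassigned.

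Genes were named from GENCODE release 44 on GRCh37. Of 63677 identifiers, 8012 had no entry there, and 1 of 112 listed symbols, *PECAM1*, was not matched. Counts were filtered with filterByExpr (minimum count 10, total 15), scaled by TMM and compared by the quasi-likelihood test of edgeR 4.0.16 in R 4.3.3 over all genes that passed, with Benjamini-Hochberg adjustment and no block. Standard errors are the log2 fold change divided by the root of F. The steps were tested on simulated data in which every gene had the same dispersion between replicates. That test therefore does not cover the differences between the replicates of these data. Replicates of a condition differed by more than sampling noise (chi-square per degree of freedom 4.18 to 20.5). Intervals on fold changes are at 95%, and floors of 3 counts cover counting error only.

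The genes and lists were chosen with earlier results of these data known. Values by library are given for genes of the list with an unadjusted p below 0.05 or called under any alternative that kept every library, for *AIFM1*, and for other apoptosis genes that were called. *BAX* and the genes at 0 were named beside these after their values were seen. The alternatives were DESeq2 1.42.0 with no prior, factors by RLE or by the upper quartile, no filter, at least 10 counts in every library, a replicate block and leaving out each library. Adding *BAK1P1* to *BAK1*, the count ratios and the motifs were chosen after seeing the data. Promoters came from RefSeq (GRCh38.p14) and were not compared with GRCh37 positions.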

Additional observations from a re-analysis of the deposited data

How the results depend on the processing

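The number of genes called among all tested was 671 and became 1312 without a filter on low counts, 761 with DESeq2, 684 with RLE factors, 745 with upper-quartile factors, 499 with at least 10 counts in every library and 543 with a replicate block. It ran from 139 to 812 when one library was left out. It was 139 without scramble replicate 2, 199 without scramble replicate 1 and 266 without scramble replicate 3. Without siRNA replicates 1, 2 and 3 it was 812, 356 and 665. The share called higher was 58.4%, and 69.1% with upper-quartile factors (515 higher, 230 lower), which moved the median of all genes by less than 0.1 on the log2 scale. Among the 26 genes the count of 2 became 4 without a filter, adding *MCL1* and *AIFM2*, and 3 with DESeq2, adding *MCL1*. It stayed at 2 in each fit with one library left out. The number of the 26 with non-overlapping conditions, 4, was 5 with upper-quartile factors and 7 to 9 with one library left out, where fewer libraries have to be separated. Of the other apoptosis genes, the count of 2 became 4 with DESeq2 and 4 without a filter, in both adding *PMAIP1* and *TNFRSF10B*, and ran from 0 to 3 with one library left out. With at least 10 counts in every library, *HTRA2* was not tested. No value for which these alternatives were computed changed sign, and the *SNHG15* call held throughout. Where a call changed, the cause was not tested.

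Whether the shared replicate numbers pair the libraries was not settled. The correlations of deviations between libraries of the same number were -0.08, 0.18 and -0.06. That of 0.18, for replicate 2, was the highest of any pair. For siRNA replicate 1 the highest was with scramble replicate 3, at 0.17. Values this small, from 3 libraries per condition, cannot decide the question. With the replicate number as a block, 543 genes were called, *BAK1* and *CYCS* among them, and of the other apoptosis genes 1, *ROCK1*. The lowest library total, 3446922 counts, limits genes with few reads most.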

Other observations

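Outside the caspases, the BCL2 family and the genes called above, the genes of the death receptors for TRAIL gave values in both directions, none past an adjusted p of 0.05 in the edgeR fit of the report. They were singled out after their values were seen. *TNFRSF10A*, which encodes a receptor that signals death, stood at 21.1, 30.2 and 24.8 CPM in the scramble and at 39.0, 34.8 and 32.9 CPM in the siRNA libraries, a log2 fold change of 0.48 (adjusted p = 0.103, edgeR). *TNFRSF10B*, which encodes the other signaling receptor, stood at 166, 170 and 116 CPM in the scramble and at 81.5, 115 and 114 CPM in the siRNA libraries, a log2 fold change of -0.55 (adjusted p = 0.0794, edgeR). For each of the 2 genes the conditions did not overlap, though for *TNFRSF10B* scramble replicate 3 and siRNA replicate 2 were nearly level. *TNFRSF10B* passed with DESeq2 and without a filter on low counts. *TNFRSF10D*, the gene of another receptor for TRAIL, had a log2 fold change of 0.36 (adjusted p = 0.143, edgeR). *TNFRSF21*, a receptor gene outside the TRAIL group, had one of 0.72 (adjusted p = 0.0613, edgeR). Both were higher without overlap, so of the 4 receptor genes with an unadjusted p below 0.05, 3 were higher and 1 was lower. *PMAIP1*, the gene of the BH3-only protein NOXA, which binds MCL1, stood at 80.9, 80.5 and 77.1 CPM in the scramble and at 30.6, 57.4 and 57.4 CPM in the siRNA libraries. Its log2 fold change was -0.71 with a standard error of 0.20 (adjusted p = 0.0548, edgeR), and siRNA replicate 1 was the lowest of the 6 libraries. It passed with DESeq2, without a filter, without siRNA replicate 1 and without siRNA replicate 3.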
